A study of Mus musculus with 6 samples.

Results

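The 52 genes described here encode the working parts of the lysosome: 8 proteins of its membrane, 29 hydrolases, 2 lipid-binding proteins of its lumen and 13 subunits or accessory proteins of the proton pump (V-ATPase). They were taken as a list of symbols by function, and the rule that picks them uses no measured value, although earlier results of these data were known when the list was made. Symbols were assigned through the RefSeq accession of each probe, and older names were accepted. A probe was matched for 51 of the 52, and Ctsf was not analysed here. Of these 51 genes, 47 passed the filter on dim probes and were tested, among 23774 genes or unnamed transcripts tested out of 44702. No array read Ctsc, Ctsh, Ctss or Manba well above background, so those 4 genes have values but no test.

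Lysosomes are acidic compartments in which proteins, glycans and lipids are taken apart. The V-ATPase acidifies them: its cytosolic V1 sector splits ATP, and its membrane-bound V0 sector carries protons into the lumen. Hydrolases are made in the endoplasmic reticulum, tagged with mannose 6-phosphate in the Golgi and delivered to the lumen, while glycosylated membrane proteins line the inner face of the boundary membrane and carry or channel small molecules across it. Many of these genes share a promoter motif, the CLEAR element, which is read by the MiT transcription factors TFEB, TFE3 and MITF.

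The cells were NIH3T3, an established mouse embryonic fibroblast line. One group carried the retroviral pCX4bsr vector with GGCT, the gamma-glutamylcyclotransferase of glutathione turnover, and the other carried the control vector. Both were stably infected populations grown in medium with 2% FBS, and each gave 3 arrays from experiments numbered 1 to 3. The labels describe 1 establishment of the populations, so p-values measure the spread between experiments, and the sources used here do not give the species of the GGCT insert.

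Levels are log2 intensities relative to the 75th percentile of the array, and every difference is GGCT minus control vector on that log2 scale. "Called" means an adjusted p under 0.05 in limma, over 3 arrays against 3. On the 6 arrays, 54.6% to 61.7% of probes stood well above background. The mouse Ggct probe read -0.57, -0.72 and -0.66 in controls and -0.14, 0.20 and -0.16 with GGCT, a difference of 0.62 ± 0.12 (SE, adjusted p = 0.0111). All 12 fibroblast markers were well above background on all 6 arrays. Of these 12, 6 were called lower with GGCT and 1 higher, with a median difference of -0.38. Over all tested genes with a symbol the shares were 22.1% lower and 17.8% higher. Their summed level, in multiples of the 75th percentile, ran from 2060 to 2491 on the control arrays and from 1581 to 1969 on the GGCT arrays. Experiment 1 of both groups was on slide 1 and experiments 2 and 3 on slide 2. The controls all lay at array position 2 and the GGCT arrays all at position 4, so array position and group cannot be told apart.

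With GGCT, 27 of the 47 tested lysosomal genes fell and 1 rose, and the other 19 were not called. Over all genes tested, 17.3% were called lower and 17.5% higher. Among the 14055 tested genes with a symbol, to which all members belong, 22.1% were lower and 17.8% higher, with a median difference of -0.02. The median difference of the lysosomal genes was -0.40, against 0.02 over all genes tested. The difference was below 0 for 43 of the 47 genes, beside 11544 of all 23774 tested and 7304 of the 14055 with a symbol. Of the 47, 40 were lower in each of the 3 same-numbered pairs, a count not made over all genes. On both slides 42 of the 47 were lower, beside 9967 of all 23774 tested and 6549 of the 14055 with a symbol. The groups did not overlap for 33 genes, with all GGCT arrays lower for 31 of them (24% over all genes) and all higher for 2 (25.4%). Of the 14055 with a symbol, 4205 had all GGCT arrays lower and 3664 had all higher. The 2 slides gave like medians, -0.38 on slide 1 and -0.42 on slide 2. In bulk RNA such as this, fewer cells expressing a gene and less RNA per cell cannot be told apart. The number of calls moved with the experiments: without both arrays of experiment 3, 5 genes were called lower, and without experiment 2 the number was 16, while the median was -0.36 and -0.42. The counts over all genes moved as well, from 4110 lower to 1089 without experiment 3 and to 1642 without experiment 2. For 25 of the 28 called genes, the highest adjusted p among 17 alternative settings of the analysis was the one without experiment 3. Ctso, Arsa, Lipa, Atp6v0d1 and Atp6ap2 were called in all 17, but Ctso passed the filter through the control arrays alone.

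**Figure D1:**
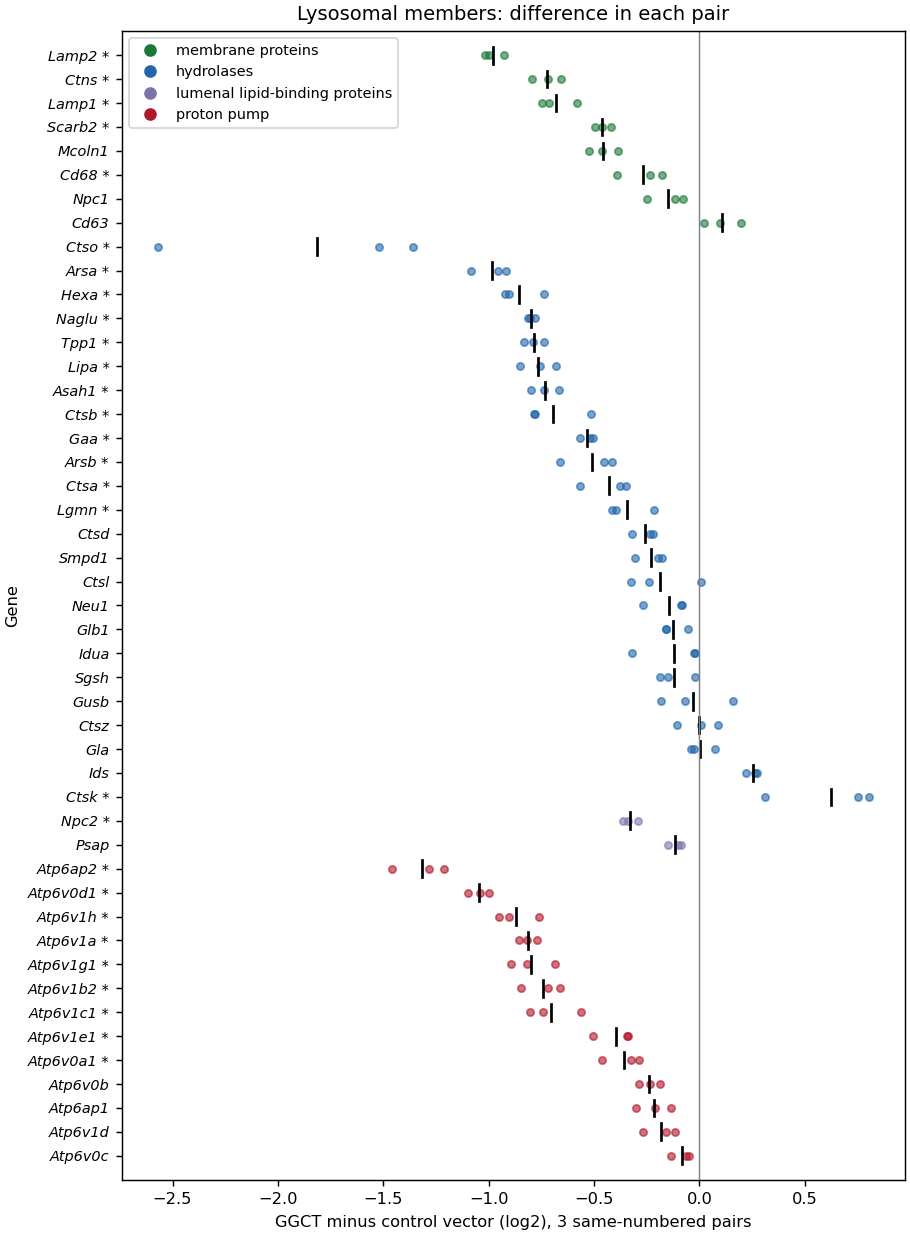
Difference GGCT minus control vector (log2, x axis) in each of the 3 same-numbered pairs (points) for the 47 tested lysosomal genes (y axis), coloured by class. Black bars are the means, and a star marks the 28 called genes. Points of 40 genes lie wholly to the left of 0, a count not made over all genes. Ctso reaches furthest, and Ctsk is the 1 starred gene to the right.

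The pump held the highest share of calls among the classes, by count. Of its 13 genes 9 fell and none rose, all 13 differences were below 0, and their median was -0.70. Of 15 other tested genes for pump subunits and assembly factors, listed separately below, 3 fell and 2 rose. Among the membrane proteins 5 of 8 fell and none rose, with a median of -0.46. Of the 24 tested hydrolases 12 fell and 1 rose, with a median of -0.30. The lumenal lipid-binding proteins were Npc2, which fell, and Psap, which was not called. The hydrolases divided further by substrate: 5 of 9 proteases, 3 of 8 glycosidases, 2 of 4 sulfatases and 2 of 3 lipid hydrolases were lower, with medians of -0.34, -0.13, -0.32 and -0.73. No test was made between classes, since their members were listed and not sampled. Without experiment 3 the lower calls were 2 for the pump, 0 for the membrane proteins and 3 for the hydrolases. Without experiment 2 they were 7, 3 and 6.

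**Figure D2:**
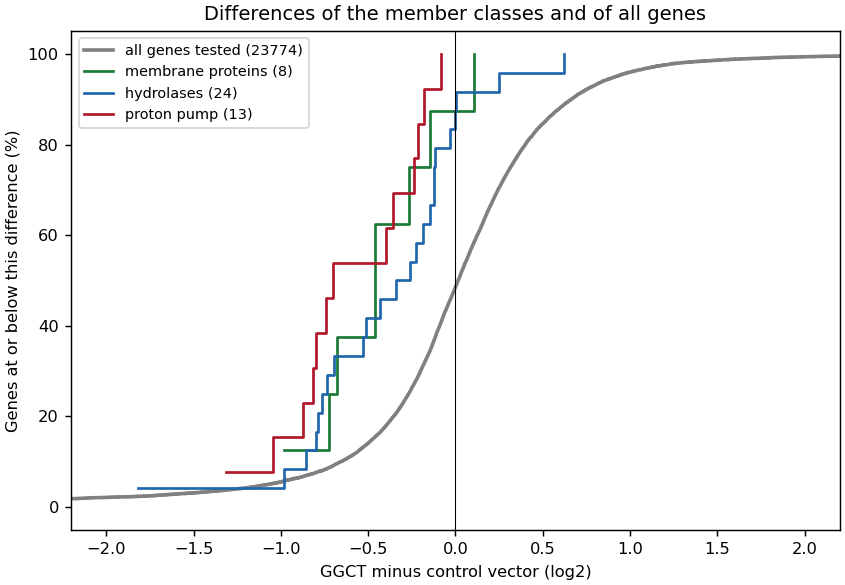
Cumulative share of genes (y axis, percent) at or below each log2 difference GGCT minus control vector (x axis) for all 23774 genes tested and for 3 classes of lysosomal genes, with the number of genes in brackets. The proton pump curve reaches its top left of 0, whereas the curve of all genes crosses 0 near its middle (median 0.02).

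Promoter windows were read for 43 of the 51 genes on the array, from RefSeq's table for build GRCm38.p6 (250 bases before to 50 after each annotated start). Npc1, Ctsb, Ctsh, Asah1, Atp6v1b2, Atp6v1c1, Atp6v1g1 and Atp6v1h had no entry. The motifs searched, on both strands, are nested: the E-box CACGTG, the CLEAR core GTCACGTG (CACGTGAC on the other strand), and the palindrome TCACGTGA, which can overlap it. The CLEAR core was in the windows of 12 of the 43 genes (27.9%) and in 2.55% of all 27025 genes with a window; by promoter the shares were 24.5% of 49 and 2.25% of 32851. The E-box was in 15 of the 43 (34.9%) and in 8.09% of all genes (7.15% of promoters), and the palindrome in 6 of the 43 (14.0%) and in 1.12% of all genes (0.974% of promoters). Since many of these genes are known to share the CLEAR element, a higher share among them was likely before the search. Among tested genes, 6 of 12 with the core were lower (median -0.39), as were 15 of 28 without it (median -0.30), a difference that was not tested. The windows of the 6 lower genes with the core are shown first. Gla and Glb1 follow as genes that hold it and were not called, and the 250 bases before the start of Atp6ap2, the member with the smallest p, as a promoter with no match to any of these motifs. Each runs 5′ to 3′ on the strand of its gene, and capitals mark the first match to the core. Among these 8 matches the first base lay between -196 (Gla) and -5 (Atp6v0d1) relative to the start. A match is a run of letters and not a shown binding site.
Lamp1 (chr8:13159107-13159166, plus strand): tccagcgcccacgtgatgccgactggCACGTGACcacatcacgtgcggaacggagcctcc
Ctsa (chr2:164833733-164833792, plus strand): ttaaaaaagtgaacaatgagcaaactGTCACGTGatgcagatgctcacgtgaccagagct
Lgmn (chr12:102439110-102439169, minus strand): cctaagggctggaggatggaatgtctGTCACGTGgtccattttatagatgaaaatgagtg
Naglu (chr11:101069993-101070052, plus strand): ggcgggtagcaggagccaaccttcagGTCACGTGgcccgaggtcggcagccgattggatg
Arsa (chr15:89477409-89477468, minus strand): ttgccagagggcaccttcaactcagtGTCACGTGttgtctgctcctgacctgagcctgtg
Atp6v0d1 (chr8:105566045-105566095, minus strand): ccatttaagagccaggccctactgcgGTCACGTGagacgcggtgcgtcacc
Gla (chrX:134601168-134601227, minus strand): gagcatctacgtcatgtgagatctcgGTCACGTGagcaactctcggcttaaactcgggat
Glb1 (chr9:114401002-114401061, plus strand): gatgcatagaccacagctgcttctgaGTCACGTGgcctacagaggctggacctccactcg
Atp6ap2 (chrX:12587509-12587758, plus strand): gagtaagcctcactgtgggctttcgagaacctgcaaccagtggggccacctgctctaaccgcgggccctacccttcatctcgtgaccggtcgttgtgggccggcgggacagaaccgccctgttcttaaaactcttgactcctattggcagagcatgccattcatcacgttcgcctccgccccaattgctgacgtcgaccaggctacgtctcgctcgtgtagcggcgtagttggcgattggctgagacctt

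LAMP1 and LAMP2 are the abundant glycoproteins that line the lysosomal membrane, and both transcripts fell. Lamp2 (chromosome X) was at 4.25, 4.09 and 4.26 in the controls of experiments 1, 2 and 3 and at 3.32, 3.07 and 3.26 with GGCT. The groups did not overlap, and the level fell 1.97-fold (difference -0.98 ± 0.10 SE, adjusted p = 0.00125), the smallest p of the membrane proteins. Lamp1 (chromosome 8), whose window is shown above, stood at 7.71, 7.57 and 7.67 against 6.995, 6.99 and 6.92, a difference of -0.68 ± 0.08 (adjusted p = 0.00185). Again every GGCT array lay below every control array. Ctns, the cystine exporter cystinosin, was read at 2.39, 2.34 and 2.42 in controls and at 1.68, 1.55 and 1.76 with GGCT, a difference of -0.72 ± 0.09 (adjusted p = 0.00206). Cystinosin releases the disulfide of cysteine, one of the amino acids of glutathione, from the lysosome. Scarb2, the receptor LIMP-2 that brings glucocerebrosidase to the lysosome, fell by 0.46 (adjusted p = 0.00777). Without experiment 3 all 4 of these genes missed the threshold, with adjusted p = 0.0751 for Lamp1, 0.0509 for Lamp2, 0.0577 for Ctns and 0.132 for Scarb2. Scarb2 also missed it without experiment 2 (adjusted p = 0.0883), when dim probes were not filtered (0.0506) and when its probes were averaged (difference -0.24, adjusted p = 0.0627).

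The other membrane proteins were nearer the threshold or not called. Cd68, the macrosialin of macrophage lysosomes, was at -0.24, -0.28 and -0.34 in controls and at -0.63, -0.52 and -0.52 with GGCT. The groups did not overlap, but the difference of -0.27 (adjusted p = 0.0451) was called in 5 of 17 alternatives, and leaving out any 1 array gave an adjusted p between 0.0791 and 0.125. Of 12 macrophage markers, no array read Ptprc, Adgre1, Lyz2, Fcgr1, Mrc1 or Spi1 well above background, and 5 were above it on all 6. The summed macrophage list ran from 25.8 to 35.04 in controls and from 25.0 to 31.1 with GGCT. Mcoln1, the calcium channel TRPML1, differed by -0.46 (adjusted p = 0.0867, and 0.0026 to 0.358 over the alternatives). With the experiment number as a block the same difference passed (adjusted p = 0.00553), as it did without experiment 1 (-0.49, adjusted p = 0.0151) and without GGCT array 1 (adjusted p = 0.028). Npc1, the cholesterol exporter, differed by -0.15 (adjusted p = 0.474). Cd63, a tetraspanin, was the 1 membrane gene with a difference above 0. It was at 8.01, 7.77 and 7.86 in controls and at 8.11, 7.96 and 7.89 with GGCT. These ranges overlapped, and the difference of 0.11 was not called (adjusted p = 0.49). It was called higher with quantile normalization (0.23, adjusted p = 0.0483) and with normexp background correction (0.26, adjusted p = 0.019), and ran from 0.019 to 0.817 in adjusted p over the alternatives.

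Among the proteases the lower genes included exopeptidases, a cysteine cathepsin of broad use and legumain. Tpp1, the tripeptidyl peptidase lost in a childhood form of neuronal ceroid lipofuscinosis, was at 5.09, 5.12 and 5.13 in controls and at 4.35, 4.29 and 4.34 with GGCT. The arrays of each group lay within a narrow range and the groups stood well apart, with a difference of -0.79 ± 0.07 (1.72-fold lower, adjusted p = 0.000785), the smallest p of the hydrolases. Ctsb, cathepsin B, was at 6.45, 6.30 and 6.26 against 5.67, 5.78 and 5.47, a difference of -0.69 ± 0.11 (adjusted p = 0.00539). Ctsb without experiment 2 (adjusted p = 0.0502), and Tpp1 (0.0505) and Ctsb (0.081) without experiment 3, missed the threshold. Ctso, cathepsin O, was at -3.30, -3.45 and -3.17 in controls and at -4.83, -4.81 and -5.74 with GGCT. It had the largest difference of all 47 genes, -1.82 ± 0.27 (3.52-fold lower, adjusted p = 0.00387). Its probe was well above background on 3 control arrays and on 2 of 3 GGCT arrays. Ctso therefore passed the filter through the control arrays alone. The size of that fold rests partly on 1 dim value, that of GGCT array 3, where the lowest value well above background was -4.61. Over the alternatives the difference ranged from -2.05 to -0.44.

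Ctsa, the protective protein that stabilises beta-galactosidase and neuraminidase, fell by 0.43 (adjusted p = 0.0101), and Lgmn, the asparaginyl endopeptidase that matures other cathepsins, by 0.34 (adjusted p = 0.0239). Without control array 3 the adjusted p was 0.0514 for Ctsa and 0.103 for Lgmn, without experiment 2 it was 0.085 and 0.171, and without experiment 3 it was 0.183 and 0.274. Lgmn was called in 9 of 17 alternatives. Leaving out control array 2 or any GGCT array also ended the call of Lgmn, with an adjusted p between 0.0513 and 0.0877. Ctsk, the collagen-cleaving cathepsin K, was the 1 gene of the list that rose. It was at -2.53, -3.11 and -3.15 in controls and at -2.22, -2.31 and -2.40 with GGCT. Control 1 lay closer to the GGCT arrays than controls 2 and 3 did, and the pair differences were 0.31 on slide 1 and 0.78 on slide 2. The mean difference of 0.62 ± 0.18 (1.54-fold, adjusted p = 0.041) was called in 9 of 17 alternatives. Leaving out control array 2 or 3 or any GGCT array gave an adjusted p between 0.0902 and 0.13. Cathepsin K is known best from osteoclasts: of 8 osteoclast markers, Calcr was above background on no array, 5 were above it on all 6, and their summed level was 1.75 to 2.13 in controls and 0.98 to 1.16 with GGCT. The part of such cells in the Ctsk value was not tested.

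The cathepsins that were not called include the major aspartic and cysteine proteases of the lumen. Ctsd, cathepsin D, differed by -0.26 (adjusted p = 0.282) and was called with the experiment number as a block (adjusted p = 0.0202, and 0.0202 to 0.595 over the alternatives). Ctsl, cathepsin L, differed by -0.19 (adjusted p = 0.249), and Ctsz, cathepsin Z, by -0.0035 (adjusted p = 0.983). Ctsc and Ctsh, the cathepsins C and H, stayed at background. Ctsc, the dimmest hydrolase, read -7.24, -7.05 and -6.69 in controls and -7.23, -7.14 and -6.74 with GGCT. Ctss, cathepsin S, an enzyme of antigen-presenting cells, read -7.16, -6.95 and -6.66 in controls and -7.19, -7.03 and -6.67 with GGCT.

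Of the 8 tested glycosidases, which strip sugars from glycolipids and glycoproteins, 3 fell and none rose. Hexa, the alpha chain of beta-hexosaminidase, was at 3.83, 3.94 and 3.999 in controls and at 2.91, 3.20 and 3.09 with GGCT, a difference of -0.85 ± 0.11 (1.81-fold lower, adjusted p = 0.0021). Naglu, which trims heparan sulfate, was at 4.72, 4.79 and 4.74 against 3.91, 3.99 and 3.96, a difference of -0.80 ± 0.08 (adjusted p = 0.000828). Gaa, the acid alpha-glucosidase that clears glycogen, was at 4.73, 4.69 and 4.69 against 4.16, 4.17 and 4.19, a difference of -0.53 ± 0.07 (adjusted p = 0.00281). In all 3 genes the groups did not overlap, beside 24% of all genes tested with all GGCT arrays lower. Without experiment 3 the adjusted p was 0.067 for Hexa, 0.0504 for Naglu and 0.0922 for Gaa, and without experiment 2 it was 0.0568 for Gaa.

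The remaining 5 tested glycosidases were not called. Gla, alpha-galactosidase A, was at 8.27, 8.29 and 8.27 in controls and at 8.34, 8.25 and 8.24 with GGCT. The groups overlapped, and the difference was 0.00093 ± 0.08 (adjusted p = 0.994). Glb1, the lysosomal beta-galactosidase, differed by -0.12 (adjusted p = 0.325), Idua, which removes iduronic acid, by -0.12 (adjusted p = 0.659), and Neu1, the sialidase, by -0.15 (adjusted p = 0.35). Gusb, beta-glucuronidase, differed by -0.03 (adjusted p = 0.863) at its brighter probe. Manba, beta-mannosidase, read -6.25, -7.13 and -6.81 in controls and -6.84, -7.22 and -6.83 with GGCT, on no array well above background.

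Sulfatases remove sulfate from glycolipids and glycosaminoglycans. Arsa, which acts on sulfatide, was at 4.95, 4.86 and 4.92 in controls and at 4.04, 3.78 and 3.96 with GGCT. Every GGCT array was lower, with a difference of -0.98 ± 0.10 (1.98-fold, adjusted p = 0.000934). Arsb, which acts on dermatan and chondroitin sulfate, was at -1.52, -1.70 and -1.78 against -2.18, -2.11 and -2.23, a difference of -0.51 ± 0.10 (adjusted p = 0.0104). Arsb missed the threshold without experiment 2 (adjusted p = 0.0883) and without experiment 3 (adjusted p = 0.113). Ids, iduronate 2-sulfatase, differed by 0.25 (adjusted p = 0.103), with all 3 GGCT arrays above all controls, and was called higher with the experiment number as a block (adjusted p = 0.0185, and 0.011 to 0.385 over the alternatives). Sgsh, the heparan N-sulfatase, differed by -0.12 (adjusted p = 0.667) at its brighter probe. Its averaged probes gave -0.71 (adjusted p = 0.0401, and 0.0401 to 0.895 over the alternatives). That mean takes in a dimmer probe (-1.30) that passed the filter through the control arrays alone.

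Lipid breakdown was represented by 3 enzymes and 2 carriers. Lipa, the acid lipase that frees cholesterol from its esters, was at 2.68, 2.73 and 2.67 in controls and at 1.92, 1.87 and 1.99 with GGCT. The groups were far apart for their spread, with a difference of -0.76 ± 0.08 (1.70-fold lower, adjusted p = 0.00105). Asah1, acid ceramidase, was at 4.49, 4.36 and 4.40 against 3.83, 3.63 and 3.60, a difference of -0.73 ± 0.10 (adjusted p = 0.0026), which missed the threshold without experiment 2 (adjusted p = 0.0518) and without experiment 3 (adjusted p = 0.0768). Smpd1, acid sphingomyelinase, differed by -0.23 (adjusted p = 0.105, 0.0321 with the experiment number as a block and 0.0321 to 0.404 over the alternatives). Npc2, which hands cholesterol to NPC1, was at 5.19, 5.11 and 5.27 against 4.85, 4.82 and 4.91, a difference of -0.33 ± 0.08 (adjusted p = 0.0246). The groups did not overlap, yet Npc2 was called in 6 of 17 alternatives, and leaving out control array 1 or 3 or any GGCT array gave an adjusted p between 0.0573 and 0.109. Psap, the precursor of the saposins, was at 5.21, 5.14 and 5.14 in controls and at 5.06, 5.04 and 5.05 with GGCT. Its groups did not overlap either, but the difference of -0.11 was not called (adjusted p = 0.285).

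In the V1 sector of the pump, which binds and splits ATP, 6 of 7 subunit genes fell, with a median of -0.74. Atp6v1a encodes the catalytic A subunit and was at 3.68, 3.55 and 3.62 in controls and at 2.91, 2.70 and 2.80 with GGCT, a difference of -0.81 ± 0.09 (1.76-fold lower, adjusted p = 0.00143). Atp6v1b2, the B subunit that alternates with A in the ring, was at 4.43, 4.28 and 4.38 against 3.77, 3.56 and 3.54, a difference of -0.74 ± 0.10 (adjusted p = 0.00272). Both partners of the ATP-binding ring were lower on every GGCT array than on any control. Atp6v1h, a subunit that couples V1 to V0, was at 3.86, 3.92 and 4.03 in controls and at 2.96, 3.16 and 3.08 with GGCT, a difference of -0.87 ± 0.09 (adjusted p = 0.00128). The stalk gene Atp6v1g1 was at 7.57, 7.26 and 7.50 against 6.75, 6.58 and 6.61, a difference of -0.80 ± 0.11 (adjusted p = 0.00324). Atp6v1c1, whose product links the stalks at the V1 to V0 interface, was at 1.91, 1.89 and 1.93 against 1.16, 1.33 and 1.13, a difference of -0.70 ± 0.09 (adjusted p = 0.00214). For none of these 5 genes did the groups overlap, beside 24% of all genes tested with all GGCT arrays lower. Atp6v1e1, the other part of the stalk, fell by 0.40 (adjusted p = 0.0111), and Atp6v1d, of the central rotor, differed by -0.18 (adjusted p = 0.134) with all GGCT arrays below the controls. Atp6v1d was called lower when the slide was the block (adjusted p = 0.0418) and not with the experiment number as a block (0.0622). Without experiment 3 the adjusted p was 0.0607 for Atp6v1a, 0.0822 for Atp6v1b2, 0.0765 for Atp6v1c1, 0.087 for Atp6v1g1 and 0.0556 for Atp6v1h. Atp6v1e1 missed the threshold without control array 3 (adjusted p = 0.0594), GGCT array 3 (0.0511), experiment 2 (0.0958) or experiment 3 (0.201).

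In the V0 sector, the proton channel in the membrane, 2 of 4 genes fell. Atp6v0d1, the subunit that joins the channel to the rotor, was at 3.58, 3.37 and 3.55 in controls and at 2.48, 2.37 and 2.51 with GGCT, a difference of -1.05 ± 0.09 (2.07-fold lower, adjusted p = 0.000692). Its window is shown above with the CLEAR core starting at base -5. Atp6v0a1, 1 of the large subunits that form the proton half-channels, fell by 0.36 (adjusted p = 0.0159). That call was lost without control array 2 (adjusted p = 0.0635), control array 3 (0.0694) or GGCT array 3 (0.0548), and without experiment 2 (0.145) or experiment 3 (0.19). It was lost also when dim probes were not filtered (adjusted p = 0.0928), and its averaged probes gave a difference of -0.045 (adjusted p = 0.704). The genes of the proteolipid ring were not called: Atp6v0b differed by -0.24 (adjusted p = 0.135, 0.0249 with the experiment number as a block and 0.0171 to 0.505 over the alternatives) and Atp6v0c by -0.08 (adjusted p = 0.479).

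Of the accessory proteins, Atp6ap2, the (pro)renin receptor needed for pump assembly, had the smallest p of all 47 genes. It was at 2.89, 2.89 and 2.88 in controls and at 1.44, 1.68 and 1.60 with GGCT. The 3 controls were nearly equal and the difference was -1.32 ± 0.09 (2.49-fold lower, adjusted p = 0.000283). Atp6ap1 differed by -0.22 (adjusted p = 0.11, 0.0427 with the experiment number as a block and 0.0427 to 0.519 over the alternatives). Both accessory genes lie on chromosome X.

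**Figure D3:**
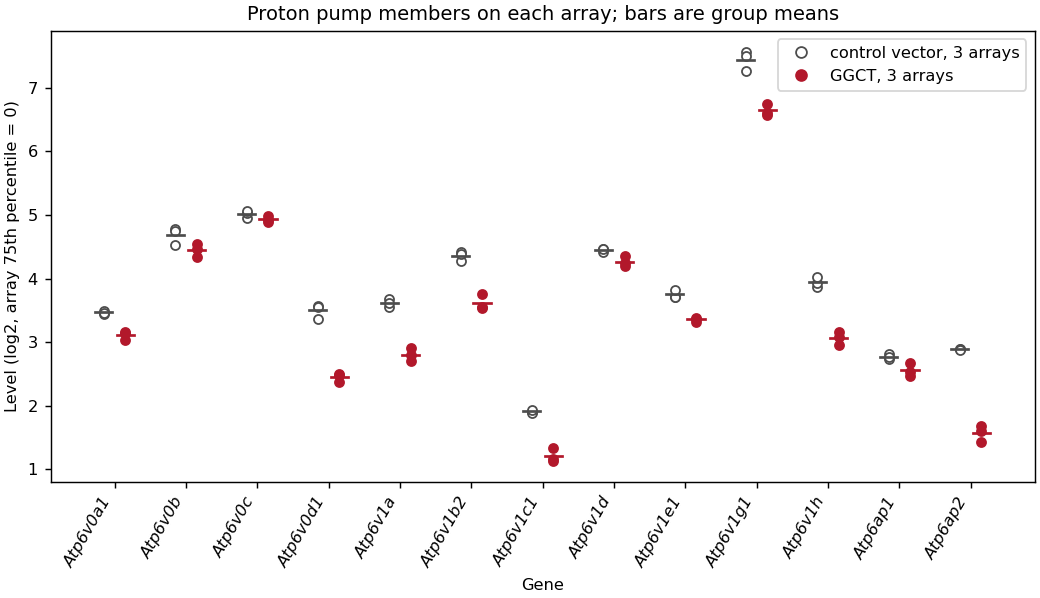
Levels of the 13 proton pump genes (x axis) on each array, in log2 units with the 75th percentile of the array at 0 (y axis); open points are control vector arrays, filled points GGCT arrays and bars the means of 3 arrays. The filled points lie below the open ones for 11 genes, and Atp6ap2 has the widest gap (-1.32). All GGCT arrays were lower for 24% of all genes tested and for 4205 of the 14055 with a symbol. Heights of different genes are not comparable, since probes differ.

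For 18 of the 51 genes the array carried more than 1 probe. Second probes repeated the direction for Lamp1 (-0.71), Gaa (-0.64), Arsb (-0.65), Asah1 (-0.81), Atp6v1b2 (-0.67) and Atp6v1h (-0.84), each called when every probe was tested. The second Lamp2 probe showed a larger decrease than the first, -1.53. Glb1, Atp6v0c and Atp6ap1 had like differences at both of their probes, and neither probe was called. For Scarb2, Cd68, Atp6v0a1, Gusb and Sgsh the probes disagreed. Scarb2 had a second probe at -0.03 and Cd68 one at -0.08, neither called, and the second Atp6v0a1 probe differed by 0.27, which was not called (adjusted p = 0.086). Gusb was not called at its brighter probe, but its dimmer probe rose by 1.02 (adjusted p = 0.003), so its direction depends on the probe. The dimmer Sgsh probe (-1.30) was well above background on the 3 control arrays and on no GGCT array.

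Genes fell more often on some chromosomes than on others in these cells, and the lysosomal genes were therefore set beside their surroundings. Medians of chromosomes with members ran from -0.28 on chromosome 13 and -0.27 on chromosome 15 to 0.18 on chromosome 12 and 0.21 on chromosome 10. On the 9 chromosomes with a median below 0, 17 of 22 lysosomal genes were lower, beside 29.5% of all named genes there. On the other 11, 10 of 25 were lower and 1 higher, beside 15.8% of all named genes. The pump genes lay largely on the first kind. Atp6v0d1 and Atp6v1b2 are on chromosome 8, Atp6v1a on 16, Atp6v1c1 on 15, Atp6v1g1 on 4 and Atp6v1h on 1. Atp6v0b on chromosome 4 (-0.24, not called) and Atp6v0a1 on chromosome 11 (-0.36) belong there too. Of the 47 tested members, 43 lay below the median of their chromosome. As many, 43, lay below that of their neighbours, which were up to 10 tested genes on each side. All 27 lower genes did both, which their choice by low values made likely. With the chromosome median subtracted from each gene the median difference was -0.43 for all members and -0.44 for the pump. With the neighbours' median subtracted it was -0.41 and -0.46. The pump's own median thus moved from -0.70, while that of the hydrolases was -0.27 after the chromosome and -0.38 after the neighbours had been subtracted.

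**Figure D4:**
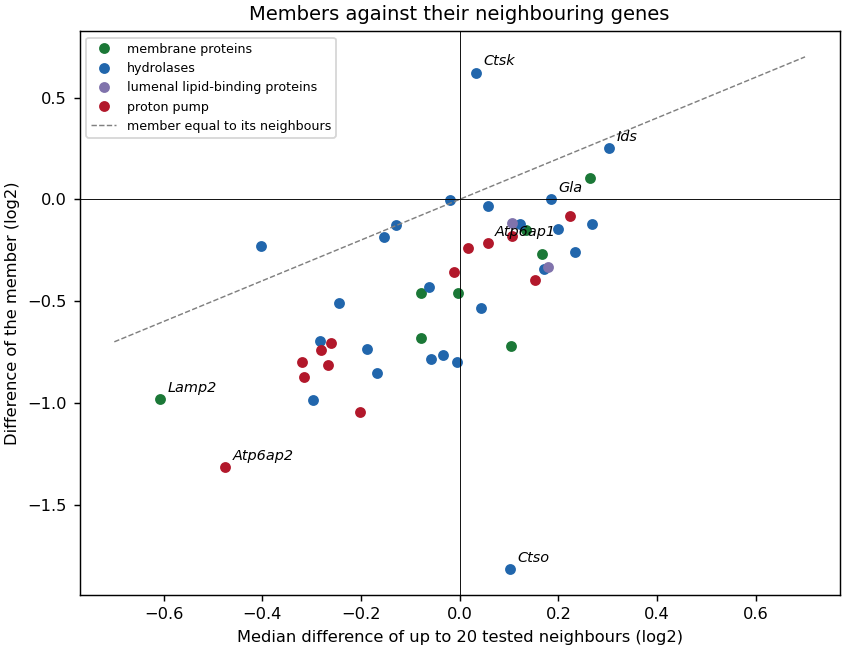
Log2 difference GGCT minus control vector of each tested lysosomal gene (y axis) against the median difference of up to 20 tested neighbours (x axis), coloured by class. Points below the dashed line (43 of 47) are genes lower than their neighbours; Lamp2 and Atp6ap2 lie at the far left with neighbours at -0.61 and -0.48.

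The 5 X-linked genes sat in unlike surroundings. Around Lamp2, 12 of 20 neighbours were called lower and 1 higher, with a median of -0.61, and Zbtb33 next to it differed by -0.80. Lamp2 itself lay 0.37 below that median. Around Atp6ap2, 11 of 20 neighbours were lower and none higher (median -0.48), and the gene lay 0.84 below. Around Ids, which was not called but differed by 0.25, 10 of 20 neighbours were higher and 1 lower (median 0.30). By contrast Ctns differed by -0.72 among neighbours with a median of 0.10, and Gaa by -0.53 among neighbours at 0.04. Ctso, which passed the filter through the control arrays alone, differed by -1.82 among neighbours at 0.10. Naglu and Atp6v0a1 are neighbours of each other on chromosome 11, and both fell.

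Lists of other lysosomal genes, chosen by function, were counted in the same way. The shares to set beside all these counts are those of the named genes tested, 22.1% lower and 17.8% higher. Of 7 tested genes for the MiT transcription factors and their regulators, 4 fell and none rose (median -0.61). Mitf was at 1.23, 0.95 and 1.08 in controls and at 0.03, -0.28 and -0.12 with GGCT (difference -1.21 ± 0.12, adjusted p = 0.000991). Tfe3 was at 4.35, 4.34 and 4.30 against 3.57, 3.72 and 3.64 (difference -0.68 ± 0.08, adjusted p = 0.00175). The groups overlapped in neither. Flcn and Fnip1, whose products form the folliculin complex that governs where TFEB and TFE3 reside, fell by 0.79 and 0.61. Tfeb differed by 0.27 (adjusted p = 0.188) and was called higher with the experiment number as a block (adjusted p = 0.0202, and 0.011 to 0.627 over the alternatives). Without experiment 3, Tfe3 (adjusted p = 0.0672), Flcn (0.105) and Fnip1 (0.155) missed the threshold. Without experiment 2 Flcn (adjusted p = 0.0577) and Fnip1 (0.117) did so. Fnip1 missed it also without GGCT array 2 (adjusted p = 0.0543) or GGCT array 3 (0.0633).

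Of 17 genes that tag, sort or activate lysosomal enzymes, 7 fell and 1 rose (median -0.27). Cln8, which helps enzymes leave the endoplasmic reticulum, fell by 1.09, and Gga2, an adaptor for mannose 6-phosphate receptors, by 1.01. Sumf1, which activates all sulfatases, fell by 0.55. Igf2r, the large mannose 6-phosphate receptor, was the 1 gene that rose (0.44, adjusted p = 0.00856), and was chosen after its value was seen. Sumf1 (adjusted p = 0.0947) and Igf2r (0.157) missed the threshold without experiment 3, and also without experiment 2 (0.0624 and 0.0673). Of 30 further hydrolases and activators, 14 fell and 1 rose (median -0.35). Arsg, another sulfatase, fell by 2.86, but its difference ranged from -3.14 to -1.43 over the alternatives. Epdr1 fell by 1.13 and Man2b1, lysosomal alpha-mannosidase, by 0.86. Fuca2 rose by 1.26 and was likewise chosen after its value was seen.

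Of 30 further membrane proteins, 11 fell and 4 rose (median -0.17, which is the same with Mfsd8 at its bound). The tetraspanin Cd82 fell by 1.73 and Tmem106b by 0.87, while Abca2, a lipid transporter, rose by 0.77. Mfsd8 passed the filter through the GGCT arrays alone and was at least 1.86-fold higher with GGCT. Abcd4 and Tpcn1, chosen after their values were seen, rose by 0.62 and 0.33. Without experiment 3 Abca2 (adjusted p = 0.0598) and Abcd4 (0.0664) missed the threshold, as did Abcd4 without experiment 2 (0.0591), and Tpcn1 was called in 8 of 17 alternatives, with an adjusted p of up to 0.253. Leaving out control array 1, 2 or 3 or GGCT array 2 or 3 gave Tpcn1 an adjusted p between 0.0889 and 0.114. The other pump subunits and assembly factors had 3 of 15 lower (20%) and 2 higher (13.3%), with a median of -0.01. These shares were near those of all named genes tested, 22.1% and 17.8%. Atp6v0e2, an isoform of the small e subunit, was at -0.78, -0.63 and -0.79 in controls and at 1.16, 1.35 and 1.13 with GGCT, and rose by 1.95 (adjusted p = 9.93e-05). The other isoform, Atp6v0e, fell by 0.51 and the assembly factor Ccdc115 by 0.50. Atp6v0a4, well above background on control arrays alone, was at least 1.80-fold lower, and Tmem9, chosen after its value was seen, rose by 0.45. Without experiment 3 Atp6v0e (adjusted p = 0.133), Ccdc115 (0.127) and Tmem9 (0.165) missed the threshold. Without experiment 2 they missed it too (0.0614, 0.0612 and 0.128), as did Atp6v0a4 (0.0592), and without GGCT array 2 or 3 Tmem9 did (0.0587 and 0.0709).

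Of 5 tested inhibitors of cathepsins, 3 fell and none rose. Cst6, a cystatin, differed by 0.31 (adjusted p = 0.0791) and was called higher with the experiment number as a block (adjusted p = 0.0289, and 0.0289 to 0.241 over the alternatives). Ctla2a was at 0.49, 0.47 and 0.67 in controls and at background on all 3 GGCT arrays, at least 44.1-fold lower. Its neighbour in name, Ctla2b, was at least 18.98-fold lower. Both genes passed the filter through the control arrays alone, and such near-identical copies may share a probe's signal. Cstb, cystatin B, fell by 0.53. The last list held the Ragulator and BORC complexes and GTPases that act with them, among them Rraga, Rragc and Arl8b. They hold the nutrient sensor mTORC1 on lysosomes and set where lysosomes lie. Of its 17 tested genes, 6 fell and 2 rose (median -0.33). Rragc fell by 0.77, Borcs5 by 0.74 and Rraga by 0.55, while Borcs7 rose by 0.59, and Bloc1s1, chosen after its value was seen, by 0.33. Without experiment 3, Rragc (adjusted p = 0.0671), Borcs5 (0.126), Rraga (0.136), Borcs7 (0.0816) and Cstb (0.121) missed the threshold. Without experiment 2, Borcs5 (adjusted p = 0.0689), Rraga (0.0837), Borcs7 (0.0619) and Cstb (0.0617) did, and without control array 3 Rraga did (0.0515). Bloc1s1 was called in 7 of 17 alternatives, and leaving out any 1 array gave it an adjusted p between 0.0512 and 0.084.

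**Figure D5:**
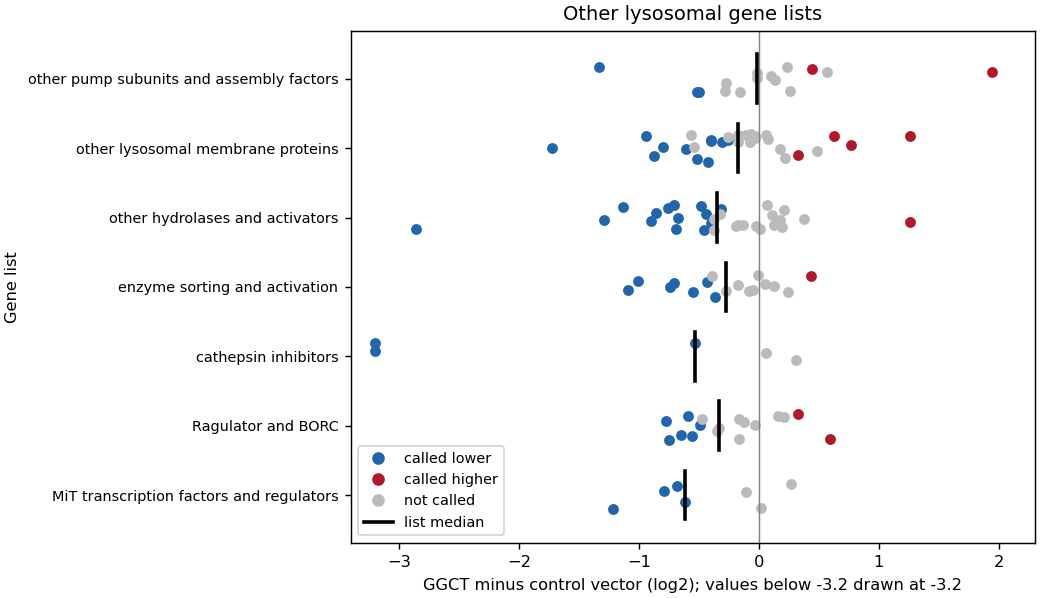
Log2 difference GGCT minus control vector (x axis) of each tested gene in 7 lists of other lysosomal genes (y axis); colour gives the call and black bars the list medians. The 2 points drawn at the left edge are Ctla2a and Ctla2b, and the point furthest right is Atp6v0e2 (1.95).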

How the data were processed

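Expression was measured on 6 Agilent 1-colour (Cy3) arrays. Spot intensities were extracted by the authors with Agilent Feature Extraction 12.1.0.3, which subtracted background and detrended within each array, per the file headers. The deposited series table holds log2 values that equal the log2 processed intensity of each array minus a constant, and served as an alternative. Groups and experiment numbers came from the sample titles.

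Control spots (3671 per array) and 578 outlier spots over the 6 arrays were left out, spots of a probe were averaged, and the 75th percentile of log2 intensity was subtracted on each array. Accessions without versions named 34504 of 56570 probes (61.0%) through the RefSeq table of GRCm38.p6. The grid file names another build (mm9), so probes carry no coordinates. Each gene took the values of its brightest probe, and entered the test when 1 group or both had that probe well above background on all 3 arrays. The test was limma's (version 3.58.1, R 4.3.3; lmFit, then eBayes), 2-sided and without a block, with Benjamini-Hochberg adjustment over all 23774 genes tested. The procedure was also tested on simulated data. "At least N-fold" sets the bright group's mean against the dim group's, each dim array raised to its lowest value well above background.

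Across genes, the deviations of same-numbered arrays from their group means correlated (r of 0.731, 0.453 and 0.358), so the titles' numbers were taken to pair the samples; values with the number as a block stand beside the calls of named genes that they change. On slide 2, arrays of different numbers correlated too (0.299 and 0.342). Alternatives were another normalization, background correction or probe rule, no filter, blocks, the deposited values, and leaving out arrays. Per-array values are given for called members with a difference of at least 0.5 in size, the smallest p of each class, and its brightest and dimmest member. Those of Ctss and Manba are given as well, though this rule does not pick them. From each other list up to 4 genes with the smallest p are named; some that the rule picks are not reported here. The members and lists were chosen with earlier results of these data known. Precision is limited by the 3 arrays per group.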

Additional observations from a re-analysis of the deposited data

How the results depend on the processing

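Of the 28 called lysosomal genes, 5 were called in all 17 alternatives for single genes and 0 changed sign in any; of the 19 not called, 10 passed in at least 1 alternative and 6 with the experiment number as a block. Leaving out arrays or experiments gave 5 to 26 members lower and 0 to 1 higher (hydrolases 3 to 12 and 0 to 1, membrane proteins 0 to 5 lower, pump 2 to 9 lower), and 1089 to 4539 genes lower and 692 to 4573 higher over all genes tested. Fewer arrays enter those fits. Members called higher numbered 3 with quantile normalization and 3 with normexp background (hydrolases 2 and 2, membrane proteins 1 and 1), 0 with no filter on dim probes, and 2 when the probes of each gene were averaged, 2 with the replicate block, 2 with the slide block and 2 with every probe tested, all hydrolases. Membrane proteins called lower were 3 with no filter and 3 with averaged probes. Over all genes, no filter gave 2493 lower and 2218 higher, the replicate block 6195 and 6490, and the slide block 6191 and 6562. The block added 6 member calls and ended none. Without the filter 9 called members missed the threshold (Cd68, Scarb2, Ctsa, Ctsk, Lgmn, Arsb, Npc2, Atp6v0a1 and Atp6v1e1, adjusted p from 0.0506 to 0.197). Npc2 also missed it with quantile normalization (0.051) and normexp (0.0638), under both of which Cd63 and Ids were called higher. Averaging probes ended the calls of Cd68 (-0.17), Scarb2 and Atp6v0a1 and added Sgsh (-0.71). The dimmer probe in that Sgsh mean passed the filter through the control arrays alone. The members' median was -0.35 with quantile normalization and -0.31 with normexp. Differences near 0 changed sign without changing the main call. Ctsz was 0.050 with quantile normalization, 0.066 with normexp, and -0.059 to 0.070 when arrays were left out. Gla was -0.026 with a median shift, -0.0013 in the deposited values, and -0.034 to 0.022 when arrays were left out. Gusb was 0.0025 with quantile normalization and -0.13 to 0.046 when arrays were left out. Sgsh was -0.25 to 0.043 when arrays were left out, and Atp6v0c was 0.033 with normexp. For Gusb the mean of its probes gave 0.50 (adjusted p = 0.0213), since its dimmer probe rose. For the other changes the cause was not tested. Testing every probe and subtracting chromosome or neighbour medians were chosen after the data were seen.

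Limits: 3 arrays a group from 1 described establishment of the populations, 1 slide holding experiment 1 alone, and array position tied to group. Transcript levels say nothing of enzyme activity or lysosomal pH, which were not measured here.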
